A study of Mus musculus with 12 samples.

Results

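The clustered histone genes are the multicopy genes for linker histone H1 and the core histones H2A, H2B, H3 and H4 that sit together in the Hist1, Hist2, Hist3 and Hist4 clusters of the mouse genome. They were taken here by name, as every gene row whose symbol begins with Hist1h, Hist2h, Hist3h or Hist4h. The rule found 75 of the 24132 gene rows, with 68 distinct symbols, since 7 rows repeat a symbol. By cluster, 59 rows belonged to Hist1, 12 to Hist2, 3 to Hist3 and 1 to Hist4. By class there were 6 H1, 22 H2A, 21 H2B, 12 H3 and 14 H4 rows.

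The RNA came from primary fibroblasts of the tail tip of newborn mice, on a strain backcrossed to C57BL6. Cells were homozygous for a disruption of Hotair (knockout), heterozygous for it, or wild type, with 2 poly(A) RNA-seq libraries of each genotype. Hotair is a long noncoding RNA of the HoxC cluster. Nothing in the labels says whether the 2 libraries of a genotype came from separate animals or cultures, so each p-value speaks of variation between libraries, possibly technical, and no further.

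Most messages of these genes are made during DNA replication and end in a conserved stem-loop in place of a poly(A) tail. The stem-loop is bound by SLBP, and the end is cut with the help of the U7 small nuclear ribonucleoprotein. A minor share of histone messages does receive a poly(A) tail, and this share is known to be larger in some differentiated cells and when stem-loop processing is reduced. Poly(A) selection therefore recovers tailed histone RNA and whatever untailed RNA is carried over, and these cannot be told apart in a level per gene. The core histones form the nucleosome as H3-H4 and H2A-H2B pairs, and H1 binds the linker DNA between nucleosomes.

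The targeted gene was checked first. Hotair was listed at 0 in both knockout libraries, against 0.213 and 0.172 RPKM in the heterozygous libraries and 0.247 and 0.183 RPKM in the wild-type libraries. RPKM is reads per kilobase of gene, scaled to the library's read total, and 3 reads in a knockout library would have given 0.0281 or 0.0293 RPKM. Libraries held 48.1M and 46.0M read equivalents in knockout, 33.2M and 31.2M in heterozygous and 29.6M and 27.9M in wild-type cells. Fibroblast markers (10 genes, Vim and the collagens among them) summed to 4256 to 4289 RPKM in knockout, 4659 to 4755 in heterozygous and 5103 to 5115 in wild-type libraries. Macrophage and leukocyte markers (10 genes) summed to 54.5 to 54.9 RPKM in knockout libraries, against 7.61 to 8.43 in heterozygous and 8.93 to 10.3 in wild-type libraries. Schwann cell and neural markers (5 genes) summed to 14.2 to 14.8, 30.6 to 31.4 and 25.4 to 25.5 RPKM in knockout, heterozygous and wild-type libraries. Keratinocyte markers (6 genes) reached at most 1.02 and endothelial markers (4 genes) at most 0.255 RPKM summed, and no marker of these 5 lists was at 0 in all 6 libraries. The part of these cell type differences in the histone results below was not tested, and in bulk RNA fewer cells of a type and less RNA per cell cannot be told apart.

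Near-identical copies can share reads, so rows are not independent measurements. Rows that repeat a symbol differed by at most 0.450% in any library, and Hist1h2bq and Hist1h2br had the same value in all 6 libraries. Keeping 1 row per symbol and per set of identical values left 67 rows. Of the 12 H4 rows above the filter, 9 had the same length of 313 bases, as 8 H2A rows shared 394 bases and 7 H2B rows 382 bases. The sources used here do not give how reads matching several copies were counted. Counts of rows therefore describe the table and not separate genes.

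A gene entered the tests when it reached 1 RPKM in at least 2 of the 6 libraries. This held for 10897 genes, and for 69 of the 75 histone rows. The other 6 rows lay between 0 and 1.02 RPKM. Hist2h2be, which encodes an H2B known from olfactory neurons in mice, had means of 0.496, 0.578 and 0.607 RPKM in knockout, heterozygous and wild-type cells. The linker genes Hist1h1b (0.198, 0.620 and 0.425 RPKM), Hist1h1a (0.127, 0.303 and 0.575 RPKM) and the testis-specific Hist1h1t (0.0233, 0.0165 and 0.0196 RPKM) were low in all genotypes, given in the same order. Both H4 rows outside Hist1 were low too. Hist2h4 averaged 0.323, 0.132 and 0.0484 RPKM and Hist4h4 0.00377, 0.0157 and 0.0178 RPKM.

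Levels per length were highest among H2B and H2A rows. Hist1h2bc, an H2B gene, led with a mean of 126 RPKM over the 6 libraries, followed by the H2B rows Hist1h2bk (86.9), Hist1h2bl (86.5), Hist1h2bj (81.2), Hist1h2bh (74.0), Hist1h2bn (70.9), Hist1h2bf (64.2) and Hist1h2bg (60.4). Lower H2B levels were found for Hist1h2bm (58.5), Hist1h2ba (47.5), Hist1h2bb (44.0), Hist1h2bp (43.7), Hist1h2bq and Hist1h2br (18.4 in each of 4 rows), Hist1h2be (13.7), the pseudogene Hist3h2bb-ps (6.39), Hist3h2ba (5.37) and Hist2h2bb (3.97). Hist1h2ba encodes a testis-specific H2B, and its level here is given as counted, beside near-identical copies.

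The H2A rows were led by Hist2h2aa1 (84.6 and 84.7 RPKM in 2 rows) and Hist2h2aa2 (74.3 in each of 2 rows). Mean levels between 50 and 70.0 RPKM were found for Hist1h2ap (70.0 and 69.9), Hist1h2ah (68.98), Hist1h2ad (68.3), Hist1h2ai (68.0), Hist1h2af (61.5), Hist1h2an (57.6), Hist1h2ag (56.1), Hist1h2ao (54.4 in each of 2 rows) and Hist1h2ab (51.5). Hist2h2ac (45.6), Hist1h2ak (41.9), Hist1h2ae (36.7), Hist2h2ab (20.01), Hist1h2ac (11.1), the testis-type Hist1h2aa (9.32) and Hist3h2a (8.11) were lower.

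H4 rows spanned a narrow range of means, with Hist1h4n highest (22.6 and 22.7 RPKM in 2 rows) and then Hist1h4m (19.2), Hist1h4j (18.4), Hist1h4a (18.2), Hist1h4k (18.1), Hist1h4b (18.1), Hist1h4f (16.9), Hist1h4c (16.1), Hist1h4d (15.5), Hist1h4h (15.1) and Hist1h4i (14.3). By these means over all libraries, H3 rows were lower than every H4 row that passed. In knockout cells alone the order differed, where Hist2h3c2 (12.03 RPKM) and Hist2h3b (11.9) lay above all H4 rows but those of Hist1h4n (12.4 in both). The H3 means over all libraries were Hist2h3c2 (11.6), Hist2h3b (11.3), Hist2h3c1 (7.78), Hist1h3b (6.68), Hist1h3d (6.57), Hist1h3i (5.06), Hist1h3e (4.98), Hist1h3h (4.79), Hist1h3g (4.39), Hist1h3c (4.26), Hist1h3a (3.35) and Hist1h3f (2.26). Among the linker genes Hist1h1c stood at 45.2 RPKM, while Hist1h1e (2.65) and Hist1h1d (2.37) were low. Neighbours in these orders often lay close together. Of the 64 neighbouring pairs within classes, 25 differed by less than the larger SD between libraries of a genotype, among them 9 of 11 H4 pairs and 8 of 21 H2A pairs.

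**Figure D1:**
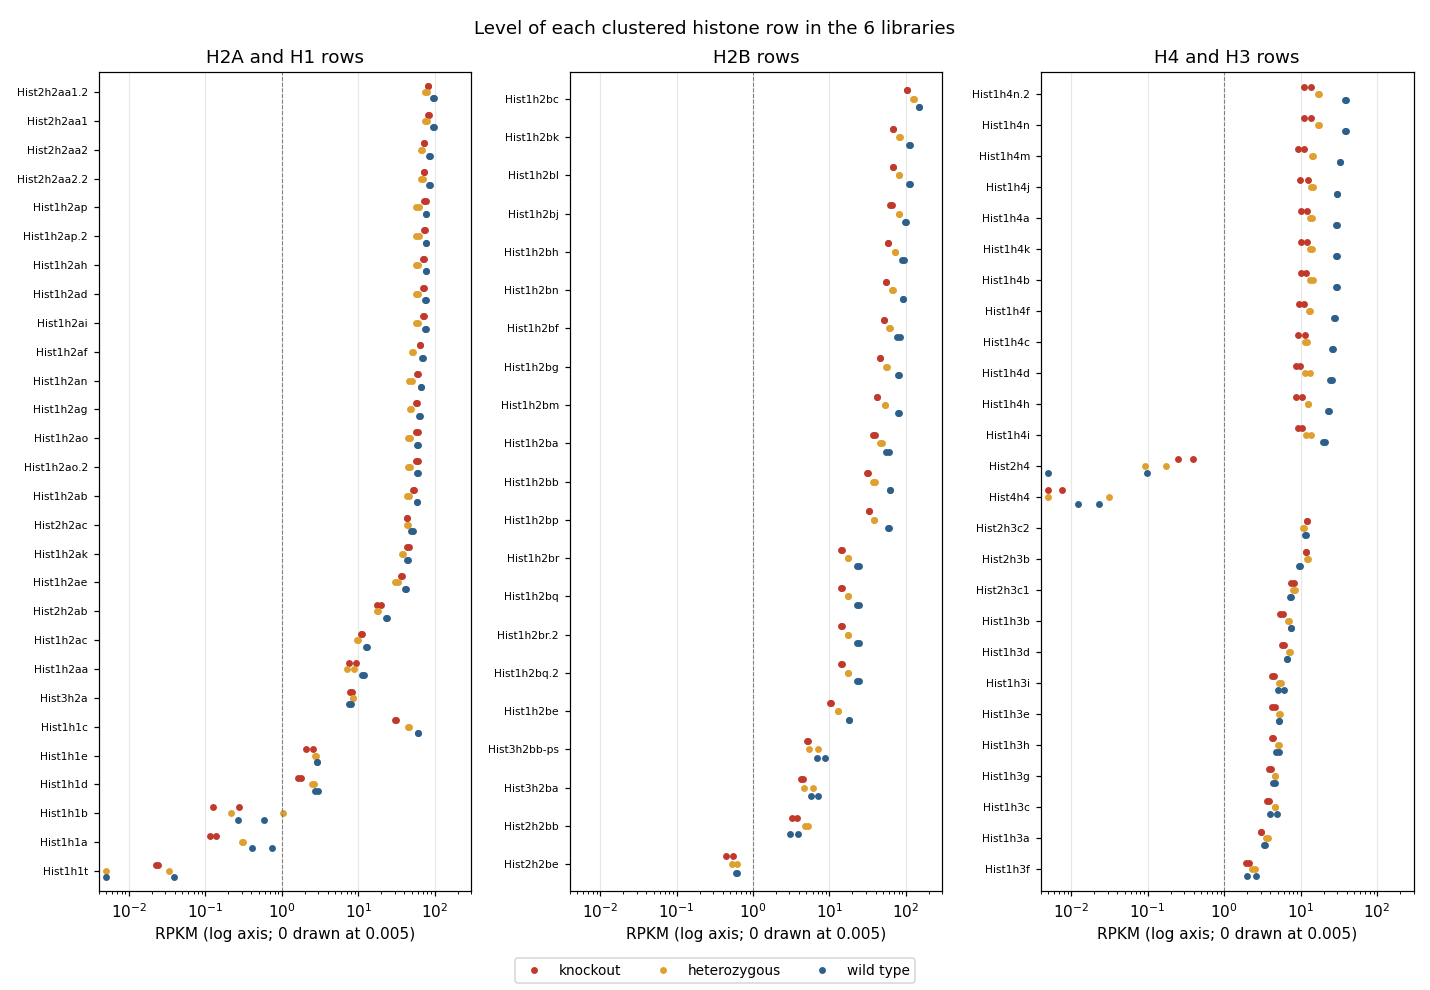
Level of each of the 75 clustered histone rows in the 6 libraries, in RPKM on a log axis, with 1 point per library (red knockout, orange heterozygous, blue wild type) and the filter of 1 RPKM as a dashed line. In the 12 H4 rows above the filter, the wild-type libraries lie between 19.6 and 38.9 RPKM and the knockout libraries below them, which does not hold for Hist2h4 and Hist4h4 under the filter.

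In knockout against wild-type cells the histone rows were mostly lower. RNA-seq analysis by limma with Benjamini-Hochberg adjustment over all 10897 genes called 56 of the 69 rows lower and 1 row higher, and 12 were not called. Among all genes tested 26.6% were called lower and 40.6% higher, 67.2% in all. The median difference of the 69 rows was -0.37 on the log2(RPKM + 1) scale (-0.24 with a pseudocount of 5), against 0.059 over all genes. With 1 row per symbol and identical set, an alternative chosen after seeing the data, 50 of 61 rows were lower and 1 was higher. The share of higher calls among all called genes was 60.4%, and 46.7% after quantile normalization or 47.2% after scaling each library to its median, while the histone rows gave 50 or 62 lower calls and 1 higher call under these scalings.

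In heterozygous against wild-type cells 51 of 69 rows were lower, 2 were higher and 16 were not called by limma. The background was 17.1% of genes lower and 35.5% higher, 52.6% in all. The median of the rows was -0.36, against 0.069 over all genes. Higher calls made up 67.5% of all called genes, and 51.1% or 45.5% under quantile normalization or median scaling, with 53 or 54 histone rows lower.

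Knockout and heterozygous cells were also compared, which shares libraries with both comparisons above. By limma 39 of 69 rows were lower in knockout, 19 were higher and 11 were not called, against 25.4% of all genes lower and 26.4% higher, 51.8% in all. The median of the rows was -0.23 (-0.14 with a pseudocount of 5) and that of all genes -0.0014. The share of higher calls among called genes was 51.0%, and 41.0% with a filter at 5 RPKM, which left 34 lower and 19 higher histone rows.

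**Figure D2:**
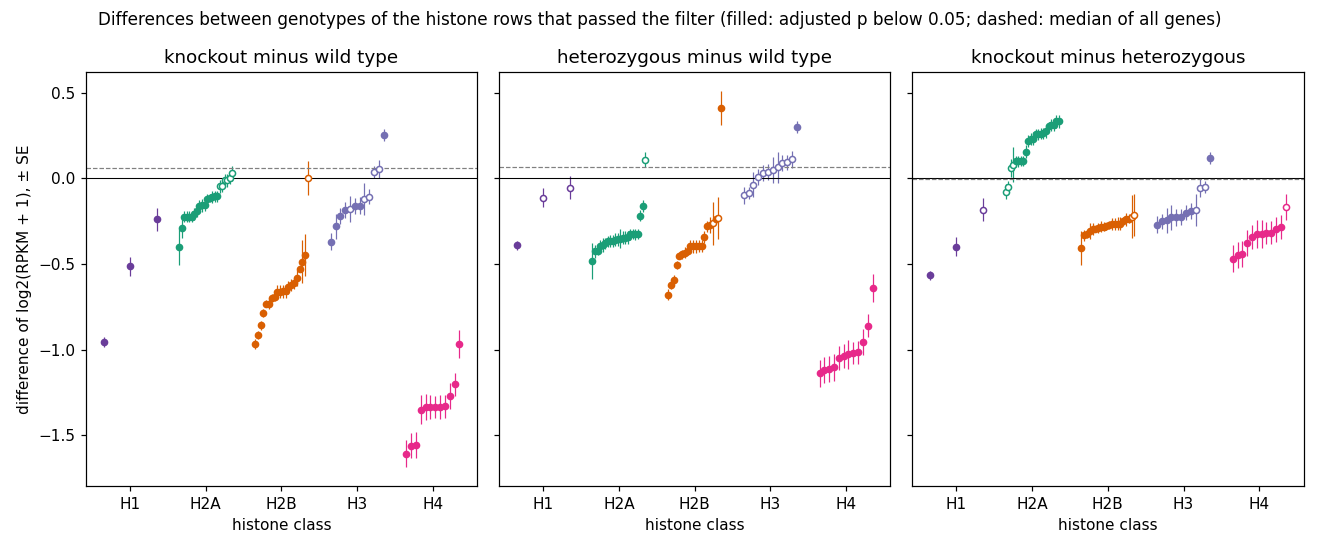
Difference of log2(RPKM + 1) between genotypes with its SE from limma for the 69 histone rows that passed the filter, by class, with filled points for calls at adjusted p below 0.05 and a dashed line at the median of all genes. Every H4 row except Hist1h4i lies lower against wild type than the rows of other classes, and the 18 filled H2A points lie above 0 in the knockout against heterozygous panel.

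H4 RNA was lower in knockout cells, and also in heterozygous cells, than in wild-type cells. H4 is the core histone whose N-terminal tail carries well-studied acetylation sites, and its many genes encode the same protein. All 12 rows that passed fell in both comparisons, where 26.6% and 17.1% of all genes fell. Mean levels in knockout were 0.309 to 0.487 of wild type, and in heterozygous cells 0.438 to 0.625 of wild type. These calls held under every alternative tried.

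Hist1h4m had 9.16 and 11.3 RPKM in knockout libraries, 14.7 and 14.2 in heterozygous libraries and 33.2 and 32.8 in wild-type libraries. The genotypes did not overlap, and knockout was lowest. Such separation was common. Libraries overlapped in only 1764 of all 10897 genes in knockout against wild type. The numbers were 2611 in heterozygous against wild type and 2420 in knockout against heterozygous. The difference in log2(RPKM + 1) from wild type was -1.61 ± 0.08 in knockout (SE, limma adjusted p 3.1e-06) and -1.14 ± 0.08 in heterozygous cells (adjusted p 3.61e-05). Hist1h4n had 11.2 and 13.6 RPKM in knockout, 17.2 and 17.0 in heterozygous and 38.9 and 37.8 in wild-type libraries. It differed from wild type by -1.56 ± 0.08 in knockout (limma adjusted p 2.88e-06) and by -1.12 ± 0.08 in heterozygous cells (adjusted p 3.17e-05), and its second row gave -1.56 and -1.11.

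The other H4 rows with large differences were close to each other. In knockout against wild type Hist1h4j differed by -1.35, Hist1h4d by -1.34, Hist1h4k by -1.34, Hist1h4f by -1.34, Hist1h4a by -1.33, Hist1h4b by -1.33 and Hist1h4c by -1.27, with SE between 0.06 and 0.08 and limma adjusted p between 2.68e-06 and 9.38e-06. In heterozygous against wild type Hist1h4c (-1.11 ± 0.08), Hist1h4a (-1.05 ± 0.07) and Hist1h4k (-1.04 ± 0.07) followed Hist1h4m and Hist1h4n, with adjusted p between 3.02e-05 and 3.84e-05. Hist1h4i had the smallest H4 difference, with 9.23 and 10.5 RPKM in knockout, 13.7 and 11.7 in heterozygous and 21.0 and 19.6 in wild-type libraries (-0.97 ± 0.08 and -0.64 ± 0.08 against wild type). Its genotypes were ordered like those of Hist1h4m, again with no overlap.

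By a description that needs no test, 11 of the 69 histone rows were at least 2-fold lower in knockout than in wild type on this scale with no overlap of libraries, where 0.725% of all genes were. All 11 were H4 rows, every one that passed except Hist1h4i. In heterozygous against wild type 9 rows were, all H4, against 0.422% of all genes, and with a pseudocount of 5 in place of 1 this count was 0. Between knockout and heterozygous cells no histone row was 2-fold apart, against 0.743% of all genes.

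Knockout was lower than heterozygous in 11 of 12 H4 rows by limma, against 25.4% of all genes. The difference was -0.47 ± 0.08 for Hist1h4m (limma adjusted p 0.00224) and -0.44 ± 0.08 for Hist1h4n (adjusted p 0.00236). Hist1h4c, at -0.17 ± 0.08, was not called (adjusted p 0.108). Without the first heterozygous library the count was 7. The second knockout library was above the first in 12 of 12 H4 rows, while the H2A rows had the second above the first in 2 of 22. All H4 rows summed to 118 and 140 RPKM in knockout, 171 and 163 in heterozygous and 354 and 347 in wild-type libraries, where reads shared between copies may be counted more than once.

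**Figure D3:**
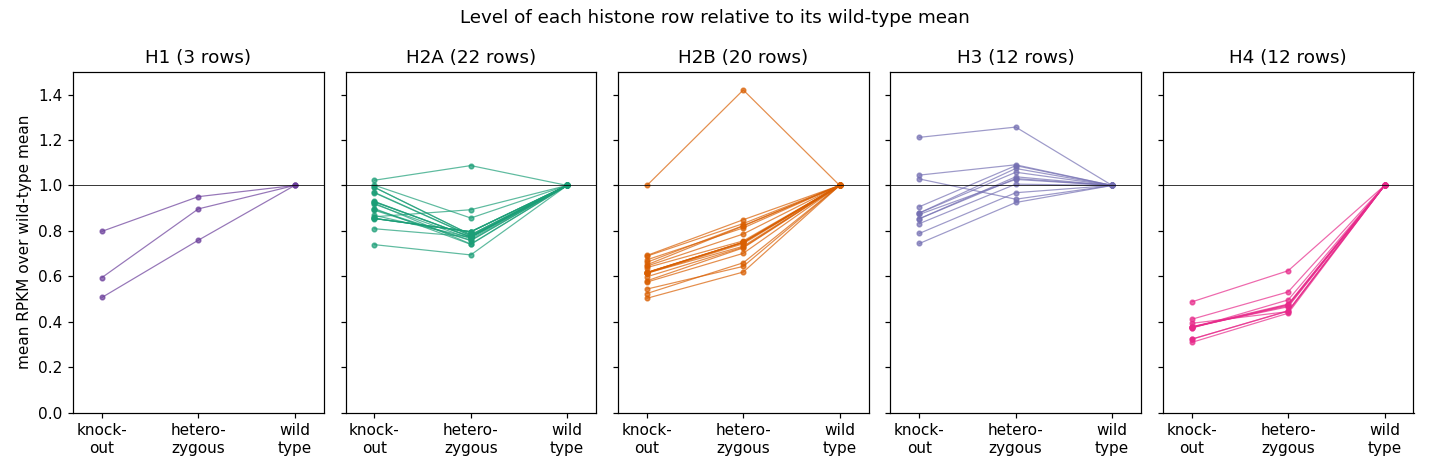
Mean RPKM of each histone row in knockout and heterozygous cells divided by its wild-type mean, with 1 line per row and 1 panel per class. H4 lines fall to 0.309 to 0.487 in knockout, most H2A lines have their lowest point in heterozygous cells, and H3 lines lie between 0.744 and 1.26.

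H2B, which pairs with H2A in the nucleosome, was lower in knockout than in wild type in 19 of 20 rows, against 26.6% of all genes. In heterozygous cells 17 of 20 rows were lower than in wild type and 1 was higher, against 17.1% and 35.5% of all genes. In 19 of 20 rows the mean was lowest in knockout, middle in heterozygous and highest in wild-type cells. The share of all genes with this order is not given here. Knockout was lower than heterozygous in 18 of 20 rows, against 25.4% of all genes. Ratios of knockout to wild-type means ran between 0.503 and 0.9998, with a median difference of -0.66.

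Hist1h2bc had 103 and 102 RPKM in knockout, 125 and 127 in heterozygous and 148 and 148 in wild-type libraries. It differed from wild type by -0.53 ± 0.02 in knockout (limma adjusted p 5e-07) and by -0.23 ± 0.02 in heterozygous cells (adjusted p 4.7e-05), with no overlap of libraries. Hist1h2bk had 68.0 and 67.6 RPKM in knockout, 82.8 and 81.6 in heterozygous and 109 and 112 in wild-type libraries, with differences of -0.70 ± 0.02 (limma adjusted p 5.54e-07) and -0.42 ± 0.02 (1.23e-05) from wild type. Hist1h2bl, of the same length, was close to it, with 67.8 and 67.9, 81.7 and 80.2, and 109 and 112 RPKM in that order of genotypes, and -0.70 ± 0.02 (limma adjusted p 5.79e-07) and -0.44 ± 0.02 (1.01e-05) from wild type. All 3 genes were separated by genotype in each comparison, as most genes tested were. Hist1h2bb had the lowest ratio of knockout to wild type in its class, with 31.6 and 31.0 RPKM in knockout, 39.4 and 37.6 in heterozygous and 62.4 and 62.1 in wild-type libraries (-0.97 ± 0.03 in knockout, limma adjusted p 4.13e-07).

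Hist2h2bb went against its class. It had 3.75 and 3.22 RPKM in knockout, 5.17 and 4.73 in heterozygous and 3.05 and 3.91 in wild-type libraries, so that only the heterozygous libraries stood apart. It was higher in heterozygous than in wild-type cells (0.41 ± 0.10, limma adjusted p 0.0108) and lower in knockout than in heterozygous cells (-0.41 ± 0.10, adjusted p 0.0114), and did not differ by the test between knockout and wild type (0.00 ± 0.10, adjusted p 0.974). The first call is lost without a filter (adjusted p 0.0501), after quantile normalization (0.0513) and without the first heterozygous library (0.0579). With a filter at 5 RPKM the row was not tested. The second is lost without the second knockout library (0.0715) or the first heterozygous library (0.0601). Both Hist3 H2B rows, Hist3h2ba and Hist3h2bb-ps, were lower in knockout than in wild type and were not called in the other comparisons. The Hist3h2ba call was lost with no filter (limma adjusted p 0.0569), without the second knockout library (0.0629) and without the second wild-type library (0.0843), and the Hist3h2bb-ps call without the second wild-type library (0.0594). Leaving out single libraries also gave calls in the other comparisons. Both rows were lower in heterozygous than in wild-type cells without the first heterozygous library (0.0294 and 0.0268) and lower in knockout than in heterozygous cells without the second (0.0331 and 0.0374), and Hist3h2bb-ps was lower in heterozygous cells without the first wild-type library (0.0393).

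H2A showed its lowest level in heterozygous cells. In heterozygous against wild type 21 of 22 rows fell, with a median of -0.35, where 17.1% of all genes fell. In knockout against heterozygous 18 of 22 rows rose, with a median of 0.23, where 26.4% of all genes rose. With no filter 14 rows rose in the latter comparison. Its median was 0.20 without the first heterozygous library and 0.28 without the second. Knockout against wild type gave smaller differences, with 16 of 22 rows lower (against 26.6% of all genes) and a median of -0.14. That count was 7 after quantile normalization (median -0.064), 20 after median scaling (median -0.22) and 10 without the second knockout library. The heterozygous mean was lowest in 20 of 22 rows, and the ratio of knockout to wild type ran between 0.739 and 1.02. The share of all genes with their lowest mean in heterozygous cells is not given here.

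Hist1h2ap had 75.6 and 72.7 RPKM in knockout, 57.5 and 61.5 in heterozygous and 77.1 and 75.8 in wild-type libraries. Heterozygous libraries lay below both other genotypes (-0.36 ± 0.04 against wild type, limma adjusted p 0.000213), and knockout was higher than heterozygous by 0.31 ± 0.04 (adjusted p 0.000418). Between knockout and wild type the difference of -0.04 ± 0.04 did not pass (adjusted p 0.307), but it was called lower after median scaling (-0.12, adjusted p 0.0106). Hist2h2aa1 had 82.6 and 81.2 RPKM in knockout, 74.0 and 78.5 in heterozygous and 97.2 and 94.4 in wild-type libraries. Here knockout was also below wild type (-0.22 ± 0.03, adjusted p 0.000545).

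Hist1h2ak had 45.2 and 42.8 RPKM in knockout, 37.2 and 38.1 in heterozygous and 44.4 and 43.5 in wild-type libraries, and knockout and wild type overlapped (0.00 ± 0.03, limma adjusted p 0.982). Hist3h2a, from the small Hist3 cluster and with a longer row than most at 1991 bases, was the H2A row with the highest heterozygous level relative to wild type. It had 8.22 and 7.78 RPKM in knockout, 8.46 and 8.55 in heterozygous and 8.03 and 7.61 in wild-type libraries, and was not called in any comparison (0.03 ± 0.04 in knockout against wild type, adjusted p 0.584). All H2A rows summed to 1203 and 1170 RPKM in knockout, 997 and 1050 in heterozygous and 1318 and 1291 in wild-type libraries.

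Most H3 rows differed little between heterozygous and wild-type cells. H3, the partner of H4, carries the lysine methylation marks written by Polycomb and Trithorax complexes. The shares of all genes called lower and higher were 26.6% and 40.6% in knockout against wild type. They were 17.1% and 35.5% in heterozygous against wild type and 25.4% and 26.4% in knockout against heterozygous cells. In knockout against wild type 6 of 12 rows were lower, 1 was higher and 5 were not called, with a median of -0.16. After quantile normalization 9 rows were lower (median -0.32) and after median scaling 8 (median -0.24), while without the second knockout library 2 were. In heterozygous against wild type 1 row was higher and 11 were not called, with a median of 0.043 that was -0.065 after quantile normalization and -0.032 after median scaling, where 2 rows were called lower, and -0.0058 without the second wild-type library. Knockout was lower than heterozygous in 8 of 12 rows and higher in 1, and lower in 5 without the second knockout library or the first heterozygous library. The 1 higher row, Hist2h3c2 (12.05 and 12.01 RPKM in knockout, against 10.8 and 11.2 in heterozygous libraries), was not called without either of the knockout libraries or without the first heterozygous library.

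Hist2h3b had 11.8 and 11.9 RPKM in knockout, 12.5 and 12.1 in heterozygous and 9.68 and 9.88 in wild-type libraries. It was the H3 row called higher against wild type in both comparisons, by 0.25 ± 0.04 in knockout (limma adjusted p 0.000504) and 0.30 ± 0.04 in heterozygous cells (adjusted p 0.000398). Hist1h3b went the other way, with 5.86 and 5.31 RPKM in knockout, 6.99 and 6.89 in heterozygous and 7.59 and 7.42 in wild-type libraries (-0.37 ± 0.05 in knockout, limma adjusted p 0.000409). Its heterozygous difference of -0.10 ± 0.05 was not called (adjusted p 0.130), and was called after quantile normalization (0.0396) and median scaling (0.0252). All H3 rows summed to 70.1 and 67.7 RPKM in knockout, 76.4 and 76.8 in heterozygous and 74.9 and 72.0 in wild-type libraries.

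All 3 linker histone rows that passed had means lowest in knockout, middle in heterozygous and highest in wild-type cells. The share of all genes with this order is not given here. Hist1h1c had the highest level of the 3. It had 29.9 and 30.7 RPKM in knockout, 44.7 and 46.1 in heterozygous and 59.9 and 59.7 in wild-type libraries. The genotypes did not overlap, as was common among all genes in each comparison. Differences were -0.96 ± 0.03 in knockout against wild type (limma adjusted p 3.12e-07) and -0.39 ± 0.03 in heterozygous against wild type (adjusted p 3.99e-05). In knockout against heterozygous cells the difference was -0.57 ± 0.03 (adjusted p 8.38e-06). The last was the largest absolute difference among the called histone rows of that comparison. Hist1h1d, at 1.77 and 1.62 RPKM in knockout, 2.62 and 2.49 in heterozygous and 2.96 and 2.74 in wild-type libraries, was lower in knockout than in wild type (-0.51 ± 0.06, adjusted p 0.000138) and than in heterozygous cells (-0.40 ± 0.06, adjusted p 0.000947). Its heterozygous difference of -0.11 ± 0.06 was not called (adjusted p 0.123), and was called after quantile normalization (0.0110) and median scaling (0.0299). Hist1h1e had 2.52 and 2.09 RPKM in knockout, 2.80 and 2.71 in heterozygous and 2.90 and 2.88 in wild-type libraries. Its call in knockout against wild type (-0.24 ± 0.07, limma adjusted p 0.0152) was lost without the second knockout library (0.0951), the first wild-type library (0.0567) or the second (0.0510).

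The H4 rows moved together, and promoter sequences from RefSeq (GRCm38.p6, a later build than that of the table) were read for 61 of the 68 symbols, 150 bases up to the annotated start. They are shown for genes described above: the H4 genes with the largest and the smallest differences in knockout, the H2B gene with the lowest ratio, the leading H2A row, the leading H1 gene, and Hist3h2a, which was not called in any comparison. Capitals mark the motifs searched on both strands and at any position in the 150 bases. These were the CCAAT box, the letters TATAAA, the octamer ATTTGCAT and the H4 element GGTCCG, or their reverse complements. In Hist1h4m and Hist1h4i TATAAA lay near the upstream end of the window, so a match is not read as a TATA box. The motifs were chosen with these sequences known.
Hist1h4m, chr13:21811596-21811745, plus strand: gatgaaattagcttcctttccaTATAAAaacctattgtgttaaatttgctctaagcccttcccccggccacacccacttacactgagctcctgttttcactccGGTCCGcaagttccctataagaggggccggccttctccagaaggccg
Hist1h4i, chr13:22041363-22041512, minus strand: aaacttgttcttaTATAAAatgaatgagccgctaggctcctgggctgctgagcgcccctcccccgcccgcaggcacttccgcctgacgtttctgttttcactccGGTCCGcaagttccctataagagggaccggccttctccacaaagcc
Hist1h2bb, chr13:23746584-23746733, plus strand: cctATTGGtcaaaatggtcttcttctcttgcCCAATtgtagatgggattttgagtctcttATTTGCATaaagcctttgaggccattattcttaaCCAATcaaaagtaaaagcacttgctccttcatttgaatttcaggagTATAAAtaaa
Hist2h2aa1, chr3:96245347-96245496, plus strand: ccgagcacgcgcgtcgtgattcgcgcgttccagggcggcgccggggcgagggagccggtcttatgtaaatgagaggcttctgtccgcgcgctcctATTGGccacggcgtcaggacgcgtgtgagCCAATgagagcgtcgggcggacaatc
Hist1h1c, chr13:23738657-23738806, plus strand: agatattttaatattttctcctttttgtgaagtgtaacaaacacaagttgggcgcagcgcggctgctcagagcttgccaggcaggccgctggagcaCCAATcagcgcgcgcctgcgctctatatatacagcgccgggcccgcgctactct
Hist3h2a, chr11:58954535-58954684, plus strand: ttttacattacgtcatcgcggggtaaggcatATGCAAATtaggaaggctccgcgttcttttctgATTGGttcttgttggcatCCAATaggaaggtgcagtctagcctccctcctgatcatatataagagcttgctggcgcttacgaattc

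GGTCCG, the core of an element known from human H4 promoters, where it is bound by HINFP, was in 9 of 12 H4 promoters, 1 of 16 H2B and 1 of 10 H3 promoters, and in 4.53% of the promoters of 27025 genes in the same window. CCAAT, the box bound by NF-Y, was in 6 of 6 H1, 17 of 17 H2A, 16 of 16 H2B and 8 of 10 H3 promoters, in 3 of 12 H4 promoters, and in 25.3% of all genes. The octamer, bound by OCT1 in H2B promoters, was in 5 of 17 H2A and 5 of 16 H2B promoters and in 1.02% of all genes. TATAAA was in 4 of 6 H1, 7 of 17 H2A, 4 of 16 H2B, 4 of 10 H3 and 5 of 12 H4 promoters, against 8.08% of all genes. In 1 member 2 different motifs overlapped. Hist1h4m and Hist1h4i, at the ends of the H4 range, both hold GGTCCG, so these letters do not divide them. Hist1h4a, Hist1h4b and Hist1h4h lack these letters and were also lower in knockout than in wild type (-1.33, -1.33 and -1.20). Hist4h4 holds them and lay under the filter. A relation of the motifs to the differences was not tested. A match describes the letters only, at any position in the window, and binding was not measured.

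Genes that act on histone messages or proteins were taken from lists. Among 11 replication-independent histones, whose messages normally carry poly(A) tails, 9 rose in knockout against wild type and 1 fell. Of all genes 40.6% rose and 26.6% fell. The linker histone gene H1f0 had 19.3 and 18.5 RPKM in knockout libraries, against 13.01 and 13.05 in wild-type libraries (0.50 ± 0.03, limma adjusted p 1.23e-05). H2afy2, which encodes a macroH2A, rose by 0.48 ± 0.04, H1fx by 0.47 ± 0.05 and H3f3b, a gene for a replacement H3, by 0.26 ± 0.02. In heterozygous against wild-type cells 7 of the 11 rose and 2 fell, against 35.5% and 17.1% of all genes. In knockout against heterozygous cells 4 rose and 1 fell, against 26.4% and 25.4%.

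Of 14 genes of histone pre-mRNA transcription and 3′ processing, 12 passed the filter, and 4 rose and 3 fell in knockout against wild type, where 40.6% of all genes rose and 26.6% fell. Slbp, the stem-loop binding protein, had 7.55 and 6.91 RPKM in knockout libraries and 5.12 and 5.13 in wild-type libraries (0.43 ± 0.05, limma adjusted p 0.000172). Npat, the coactivator of histone gene transcription, rose as well, but passed the filter only through the knockout libraries. The largest difference of the list, with Npat included, was 0.57. The cleavage factor gene Cstf2 rose by 0.23 ± 0.04, while Sympk, the scaffold of the cleavage complex, fell by 0.28 on the log2 scale. In heterozygous against wild-type cells 3 of the 12 rose and 2 fell, against 35.5% and 17.1% of all genes. In knockout against heterozygous cells 3 rose and 2 fell, or 2 and 2 of 11 without Npat, against 26.4% and 25.4%. General cleavage and polyadenylation genes rose in 9 and fell in 2 of 15 in knockout against wild type, with Pabpc1, the poly(A) binding protein, at 0.20 ± 0.01, the poly(A) polymerase genes Papola and Papolg at 0.46 ± 0.04 and 0.47 ± 0.06, and Pcf11 at 0.59 ± 0.06. Of 8 histone mRNA decay genes 5 rose and 1 fell. They included the exonuclease genes Xrn1 (0.68 ± 0.05) and Eri1 (0.23 ± 0.05) and the uridylyl transferase genes Zcchc6 (0.43 ± 0.04) and Zcchc11 (0.60 ± 0.06). Papolg, Pcf11 and Zcchc11, like Npat, passed the filter only through the knockout libraries. In heterozygous against wild-type cells 9 of 15 polyadenylation genes rose and 1 fell, and 4 of 8 decay genes rose and 1 fell. Without Papolg, Pcf11 and Zcchc11, knockout against heterozygous cells gave 2 of 13 polyadenylation genes higher and 1 lower, and 2 of 7 decay genes higher.

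Histone chaperones rose in 11 of 16 genes measured. Npm1 had 97.7 and 96.5 RPKM in knockout libraries, against 53.4 and 53.7 in wild-type libraries (0.85 ± 0.02), and Hat1, an acetyltransferase for newly made H4, rose by 0.63 ± 0.06. The chaperone genes Nap1l1 and Nasp rose by 0.38 ± 0.03 and 0.34 ± 0.05. S phase and replication genes rose in 16 of 23 that passed, with Ccna2 at 4.301 and 4.23 RPKM in knockout and 1.97 and 1.92 in wild-type libraries (0.84 ± 0.05), Mcm6, a helicase subunit, at 0.77 ± 0.05, Pcna, the polymerase clamp, at 0.65 ± 0.04 and the primase gene Prim1 at 0.80 ± 0.06. Mitotic genes rose in 11 of 11 that passed, of 15 listed. Some list genes passed the filter only through the knockout libraries, where they were high, so that a difference was built into their passing. These were Mki67, Ccne2 of the S phase list, Npat, Pcf11, Papolg and Zcchc11, and without them 10 of 10 mitotic, 15 of 22 S phase, 3 of 11 processing, 7 of 13 polyadenylation and 4 of 7 decay genes rose. Mki67 had 1.43 and 1.40 RPKM in knockout libraries, against 0.210 and 0.208 in wild-type libraries, and differed by 0.997 ± 0.05. Top2a (1.10 ± 0.06), Plk1 (0.69 ± 0.05) and Ccnb1 (0.65 ± 0.06) also rose. All genes named from these lists passed at adjusted p below 0.05 by limma, where 40.6% of all genes were higher.

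The same lists were higher in heterozygous than in wild-type cells in 7 of 16 chaperone, 10 of 23 S phase and 7 of 11 mitotic genes, against 35.5% of all genes, with 1 S phase gene lower. In knockout against heterozygous cells 6 of 16 chaperone genes, 13 of 23 S phase genes and 11 of 11 mitotic genes were higher, against 26.4% of all genes, with 1 chaperone gene lower. Without Ccne2 and Mki67 these were 12 of 22 and 10 of 10. Clustered histone rows summed to 2162 and 2153 RPKM in knockout, 2206 and 2236 in heterozygous and 2990 and 2999 in wild-type libraries. This sum may count shared reads more than once, and it pools classes that differ in their order over genotypes. Its relation to the S phase and mitotic genes was not tested. Markers of macrophages and leukocytes moved with the knockout libraries as well, with 6 of 7 tested higher than in wild type, or 3 of 4 without Csf1r, Tyrobp and Fcer1g, which passed the filter only through the knockout libraries. Lyz2 (23.8 and 23.5 RPKM in knockout, 1.33 and 1.13 in heterozygous, 3.20 and 3.06 in wild-type libraries), Cd68, Tyrobp and Fcer1g were among them. Of 10 fibroblast markers 3 rose and 6 fell in knockout against wild type, with Vim and Thy1 lower and Lum and Pdgfra higher. Of 3 tested Schwann cell and neural markers 2, Ngfr and Sox10, fell. Among all genes 40.6% were higher and 26.6% lower in knockout than in wild type.

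**Figure D4:**
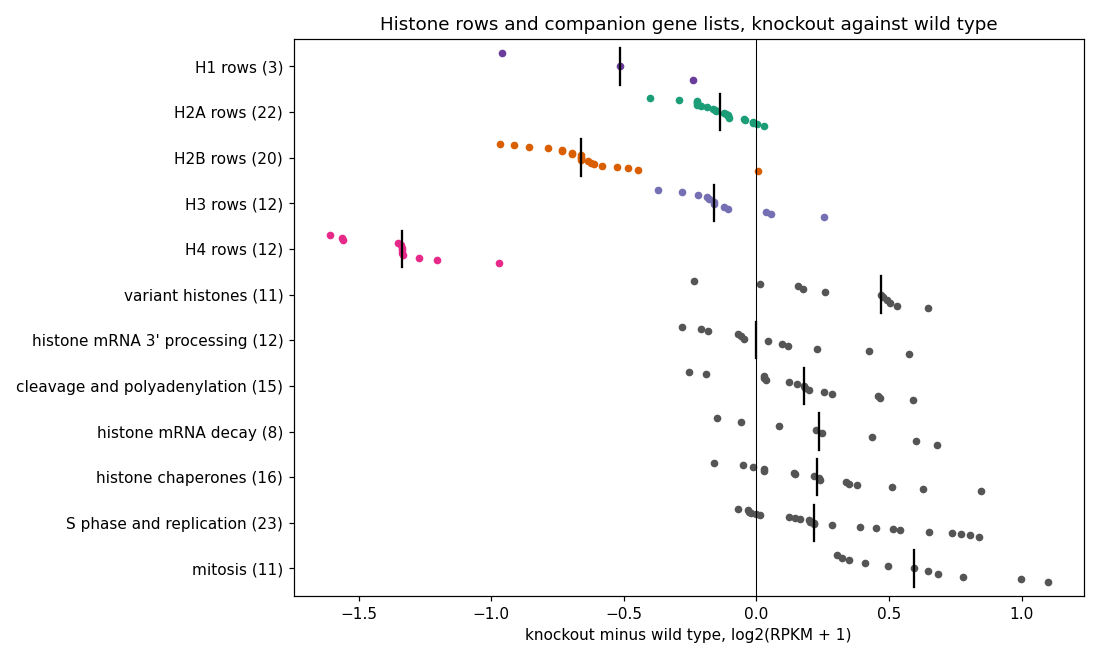
Difference of log2(RPKM + 1) between knockout and wild type for the histone rows by class and for 7 companion gene lists, with 1 point per gene or row, a bar at each median and the number tested in brackets. H4, H2B and H1 points lie left of 0 (Hist2h2bb at 0.00), while all 11 mitotic genes lie right of it.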

How the data were processed

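Poly(A) RNA was sequenced from 6 libraries, 2 per Hotair genotype, by a dUTP protocol that marks the strand (per the labels' protocols). Per the submitters' processing notes, TopHat and the mm9 build were used. The 6 ChIP-seq samples are not analysed here. The deposited table carries no unit, and RPKM is what its numbers, as deposited, showed: each is a whole number of aligned bases over a gene length (tolerance 0.002 bases), with 37 bases as 1 read. A unit of 74 bases gives the same depth in read equivalents, but makes 73.8% of gene lengths odd, against 53.1%, by halving even ones (1112 bases for Hotair in place of 2224, which would double its floor). Depth is therefore a read equivalent, and 62.6% to 64.4% of it fell in gene rows. The sources used here give neither the annotation, nor use of the strand in counting, nor the treatment of reads matching several copies.

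Values were taken as log2(RPKM + 1), which understates differences of low genes. Genes reaching 1 RPKM in 2 or more libraries entered 1 fit of the 3 genotype means by limma 3.58.1 in R 4.3.3 (variance trend on level, 3 residual degrees of freedom). Tests were two-sided, and p-values were adjusted by Benjamini-Hochberg over all genes, with a threshold of 0.05. Errors are SE of the fit. The fit was also run on simulated reads, with few changed genes and no reads shared between rows, unlike these data. No result here rests on that run. The histone members, the companion lists and the tests were chosen with earlier results of these data known. Hotair is named first, then every histone row that passed, with full statistics for the largest called differences (10 in knockout against wild type, 6 in each other comparison) and for the 3 highest rows. From each companion list the 4 genes with the smallest p are named (1 is not reported here), and other histone rows given with statistics were chosen after their values were seen. Alternatives were other pseudocounts (0.1 and 5), filters and scalings, a replicate block, each library left out, and 1 row per symbol.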

Additional observations from a re-analysis of the deposited data

How the results depend on the processing

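Over the alternatives tried, the counts over all histone rows kept within 1.5 times of their value except as follows, while counts by class moved further where the report gives them. In knockout against wild type, 2 rows were higher with no filter, Hist2h4 being the second. In heterozygous against wild type, 1 row was higher with no filter, with a filter at 5 RPKM, after quantile normalization, and without the first heterozygous library, and 0 rows were 2-fold lower with a pseudocount of 5. With a filter at 5 RPKM, which tests fewer genes, companion list genes called were 42 in place of 72 (knockout against wild type), 34 in place of 54 (heterozygous against wild type) and 29 in place of 49 (knockout against heterozygous).

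Leaving out 1 library at a time gave 44 to 56 rows lower, 1 higher and 11 to 12 that were 2-fold lower in knockout against wild type. The ranges were 51 to 53 lower, 1 to 2 higher and 7 to 9 that were 2-fold lower in heterozygous against wild type, and 31 to 40 lower and 13 to 19 higher in knockout against heterozygous. A lone library was assumed to vary like the other groups.

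Among the rows given with statistics, differences that changed sign were not called in the setting where the sign changed. Hist1h2ap, whose sign changed after quantile normalization, was called lower in knockout than in wild type after median scaling (-0.12, limma adjusted p 0.0106). In knockout against wild type, quantile normalization gave 0.035 for Hist1h2ap, -0.17 for Hist2h2bb and -0.034 for Hist3h2a, and median scaling gave -0.076 for Hist2h2bb, -0.051 for Hist3h2a, -0.079 for Hist1h2ak and -0.042 for Hist2h3c2. With 1 library left out they ran from -0.13 to 0.14 for Hist2h2bb, -0.0065 to 0.064 for Hist3h2a and -0.038 to 0.040 for Hist1h2ak. The causes were not tested.

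Libraries share only a replicate number. Deviations of same-numbered libraries correlated at -0.06 for knockout and wild type, -0.09 for heterozygous and wild type and 0.06 for knockout and heterozygous. With the replicate number as a block, 56 rows were lower and 1 higher, 51 lower and 2 higher, and 40 lower and 18 higher in the 3 comparisons in that order, 11, 9 and 0 rows were 2-fold lower, and 73, 50 and 47 companion genes were called. With 2 libraries per genotype and shared reads between copies, the number of separate genes behind these counts cannot be given. Rows under 1 RPKM were not tested.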
